A study of Mus musculus with 12 samples.

Results

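The erythroid regulators followed here are 8 transcription factors or cofactors, Gata1, Klf1, Tal1, Nfe2, Lmo2, Zfpm1, Bcl11a and Gfi1b, and the erythropoietin receptor Epor. They were chosen by name: every probe set whose only gene symbol was one of these 9 was taken. This gave 16 probe sets of the 34945 that carry a single symbol. All 9 genes were among the 11906 of 18193 genes bright enough to be tested.

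Red cell precursors switch on their late products, the globins, heme enzymes, blood group proteins and membrane skeleton, under the control of a small group of DNA-binding proteins. Gata1, Tal1 and Klf1 bind at many of these genes, Zfpm1 (also called FOG-1), Lmo2 and Gfi1b act with them as cofactors or repressors, Nfe2 serves the globin locus, and Bcl11a silences embryonic and fetal-type globins. Epor carries the erythropoietin signal that keeps the precursors alive, and Gata1 is known to act on its gene.

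Expression was measured on Affymetrix mouse arrays in whole marrow that had been neither sorted nor cultured. There were 4 genotypes with 3 mice each: wild-type C57Bl/6, Fancc-/-, Fancg-/- and the double knockout Fancc-/-//Fancg-/-. The products of both targeted genes belong to the core complex of the Fanconi anemia pathway, which repairs crosslinked DNA. Each mouse gave 1 RNA sample and 1 array, without pooling, and the labels used here give no age, sex, targeted exon or background strain for the knockouts. RNA input was 2 µg, but 0.91 µg for Fancg-/- replicate 3. The question for these genes was whether the regulators rise as the late erythroid products do.

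The arrays of a genotype correlated at 0.981 to 0.995, and arrays of different genotypes at 0.976 to 0.994. Genotypes are given as labelled, and the targeted genes did not check every label. Fancg was at 6.84 ± 0.03 (log2 signal, SD, n = 3) in wild type and 5.74 ± 0.11 in the double knockout. In the arrays labelled Fancg-/- it read 6.55, 6.00 and 6.64. Fancc was not lower in arrays labelled Fancc-/- (6.06 against 6.04 in wild type), and where its probe sets lie relative to the deletion is not known. The sex-linked transcripts differed as well. Xist was at 11.30 to 12.23 in wild type and 11.19 to 12.13 in Fancc-/-, but at 5.99 to 7.39 in the double knockout, and the Y-linked Eif2s3y was high in all 3 double-knockout arrays. Sex and the double-knockout genotype therefore cannot be told apart. In Fancg-/- replicates 1 and 3, Xist (11.31 and 10.75) and Eif2s3y (7.64 and 5.78, against at most 3.20 in wild type) were both high. Replicate 2 had Xist at 7.34 and Eif2s3y at 9.09, like the double knockouts. The 3 arrays labelled Fancg-/- thus differed in these marks and in Fancg itself, and what their mean stands for is limited by that. With replicate 2 as the sole Fancg-/- array, assumed to vary like the other groups, limma again called 0 of the 9 regulators against wild type, and Gata1 was at 0.69 and Epor at 0.85 (limma adjusted p = 0.999 for both).

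The sequence just upstream of the start site was read for 7 of the 9 genes from RefSeq (GRCm38.p6). It was searched on both strands for the letters that Gata1 and Klf1 are known to prefer: for GATA factors AGATAA or TGATAA, each also with a final G (so AGATAG and likewise TGATAG), and for Klf1 the letters CACCC. The sequences of Gata1, of Klf1, and of the other 3 genes with GATA-type letters are shown. Those of Zfpm1, Bcl11a and the other start of Tal1, all without GATA-type letters, are not shown. Each printed sequence is the 250 bases before the start, 5′ to 3′ on the gene's own strand, with the matches in capitals. A match to the other strand appears as its reverse complement, so that TTATCT stands for the first GATA form, with TTATCA for the second and, for Klf1, GGGTG.
Gata1, chrX:7967911-7968160, minus strand: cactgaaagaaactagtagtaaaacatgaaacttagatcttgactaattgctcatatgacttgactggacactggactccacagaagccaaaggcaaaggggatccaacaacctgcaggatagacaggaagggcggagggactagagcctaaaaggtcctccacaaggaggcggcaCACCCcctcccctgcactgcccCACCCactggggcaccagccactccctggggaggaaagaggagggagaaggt
Klf1, chr8:84901732-84901981, plus strand: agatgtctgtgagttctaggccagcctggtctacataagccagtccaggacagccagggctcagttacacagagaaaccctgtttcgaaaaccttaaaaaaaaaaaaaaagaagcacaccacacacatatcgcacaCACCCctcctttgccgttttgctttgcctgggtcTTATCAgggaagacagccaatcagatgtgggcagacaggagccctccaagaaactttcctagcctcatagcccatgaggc
Tal1, the first of 2 listed starts, chr4:115056176-115056425, plus strand: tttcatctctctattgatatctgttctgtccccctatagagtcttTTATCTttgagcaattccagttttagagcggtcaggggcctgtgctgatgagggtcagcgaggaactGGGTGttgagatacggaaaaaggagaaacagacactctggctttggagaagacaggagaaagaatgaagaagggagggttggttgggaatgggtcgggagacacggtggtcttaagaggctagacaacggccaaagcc
Epor, chr9:21963577-21963826, minus strand: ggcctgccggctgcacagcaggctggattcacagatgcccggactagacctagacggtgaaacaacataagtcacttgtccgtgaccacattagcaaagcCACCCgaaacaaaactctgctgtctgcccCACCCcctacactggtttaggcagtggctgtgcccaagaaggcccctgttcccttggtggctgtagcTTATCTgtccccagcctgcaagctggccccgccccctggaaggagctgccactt
Gfi1b, chr2:28621983-28622232, minus strand: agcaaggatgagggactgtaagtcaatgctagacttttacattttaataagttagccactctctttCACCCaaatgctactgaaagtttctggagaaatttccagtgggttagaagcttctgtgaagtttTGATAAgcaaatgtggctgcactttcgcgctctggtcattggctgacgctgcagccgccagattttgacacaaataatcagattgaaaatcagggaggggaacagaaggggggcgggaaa
GATA-type letters began 80 bases upstream of the start in Klf1, 205 in Tal1, 54 in Epor and 120 in Gfi1b. The windows of Gata1, Zfpm1 and Bcl11a, and the other start of Tal1, held none. CACCC letters were in all 7 genes, 3 times in Zfpm1 and in pairs in Gata1, Bcl11a and Epor. The window of the other Tal1 start, 1 of the 8 windows read, held no CACCC letters. Among all 32851 mouse promoter windows of that length, 26.5% held the GATA-type letters and 52% held CACCC. The E-box letters CAGCTG, bound by Tal1 with its partners, and the Nfe2 letters TGAGTCA were in none of the members' windows, and in 13% and 4.46% of all windows. These matches describe letters and do not show binding.

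Most of these regulators had higher signals in the marrow labelled Fancc-/-. Gata1, Tal1, Gfi1b, Zfpm1 and Epor rose there, by 1.91-fold to 2.66-fold. Klf1 was 2.02-fold higher without passing the test, and Lmo2, Nfe2 and Bcl11a were not called. Thus 5 of the 9 genes were called higher and 0 lower, where 2.18% of all tested genes were called higher and 2.36% lower (limma, Benjamini-Hochberg adjusted p below 0.05). Fancg-/- marrow had 0 called members, and double-knockout marrow, which lacks Fancc by its label too, also had 0. In both, Gata1, Tal1, Klf1, Gfi1b, Zfpm1 and Epor had means between 1.27-fold and 1.72-fold above wild type. Without wild-type replicate 2, wild-type replicate 3, Fancc-/- replicate 1 or Fancc-/- replicate 2, 2 of the 5 calls were left in Fancc-/-, those of Gata1 and Gfi1b. In these fits 0.79%, 0.857%, 1.5% and 2% of all tested genes were called higher, in the same order, also fewer than the 2.18% above. Every comparison with wild type uses the same 3 wild-type arrays, so the comparisons are not independent of each other. In whole marrow, more erythroid cells and more of these transcripts per cell cannot be told apart.

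Gata1, the zinc finger protein at the head of the erythroid program, gave log2 signals of 8.19, 8.05 and 7.94 in the wild-type mice, in replicate order. The Fancc-/- mice read 9.47, 9.33 and 8.96, the Fancg-/- mice 8.71, 8.75 and 8.76, and the double knockouts 9.12, 8.25 and 8.51. All 9 knockout arrays lay above all 3 wild-type arrays, with Fancc-/- highest and the 3 Fancg-/- values almost equal. The change was 1.19 ± 0.20 (log2, SE) in Fancc-/- (limma adjusted p = 0.00744). It was 0.68 ± 0.20 in Fancg-/- (limma adjusted p = 0.358) and 0.57 ± 0.20 in the double knockout (limma adjusted p = 0.114).

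Tal1, the basic helix-loop-helix factor that binds next to Gata1, read 8.36, 8.52 and 8.20 in wild type and 10.11, 9.70 and 9.12 in Fancc-/-. It read 9.11, 9.18 and 9.12 in Fancg-/- and 9.76, 8.49 and 8.54 in the double knockout. Both single knockouts stood clear of wild type, whereas double-knockout replicates 2 and 3 lay at or just past the top of the wild-type range and replicate 1 more than a log2 unit above it. Tal1 rose by 1.28 ± 0.31 in Fancc-/- (limma adjusted p = 0.0381), and its values were 0.78 ± 0.31 in Fancg-/- (0.63) and 0.57 ± 0.31 in the double knockout (0.291). The Fancc-/- call had the largest adjusted p of the 5. Leaving out any wild-type mouse ended it (limma adjusted p = 0.0927, 0.0995 and 0.14 without replicates 1, 2 and 3), as did leaving out Fancc-/- replicate 1 (0.109) or 2 (0.0719), median centring of the arrays (0.0508) or Xist as a covariate (0.0555).

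Klf1, which drives adult beta-globin and many membrane genes, read 9.64, 9.46 and 9.30 in wild type and 10.87, 10.70 and 9.87 in Fancc-/-. The Fancg-/- mice read 10.02, 10.39 and 10.30, and the double knockouts 10.57, 9.42 and 9.47. Again the single knockouts did not overlap wild type, and only replicate 1 of the double knockout stood above it. Klf1 missed the threshold in each comparison: 1.01 ± 0.31 in Fancc-/- (limma adjusted p = 0.0873), 0.77 ± 0.31 in Fancg-/- (0.63) and 0.35 ± 0.31 in the double knockout (0.543). Its Fancc-/- values were spread by the lower replicate 3, without which the change was 1.32 (limma adjusted p = 0.0213). Without double-knockout replicate 1 the double-knockout value was -0.02.

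**Figure D1:**
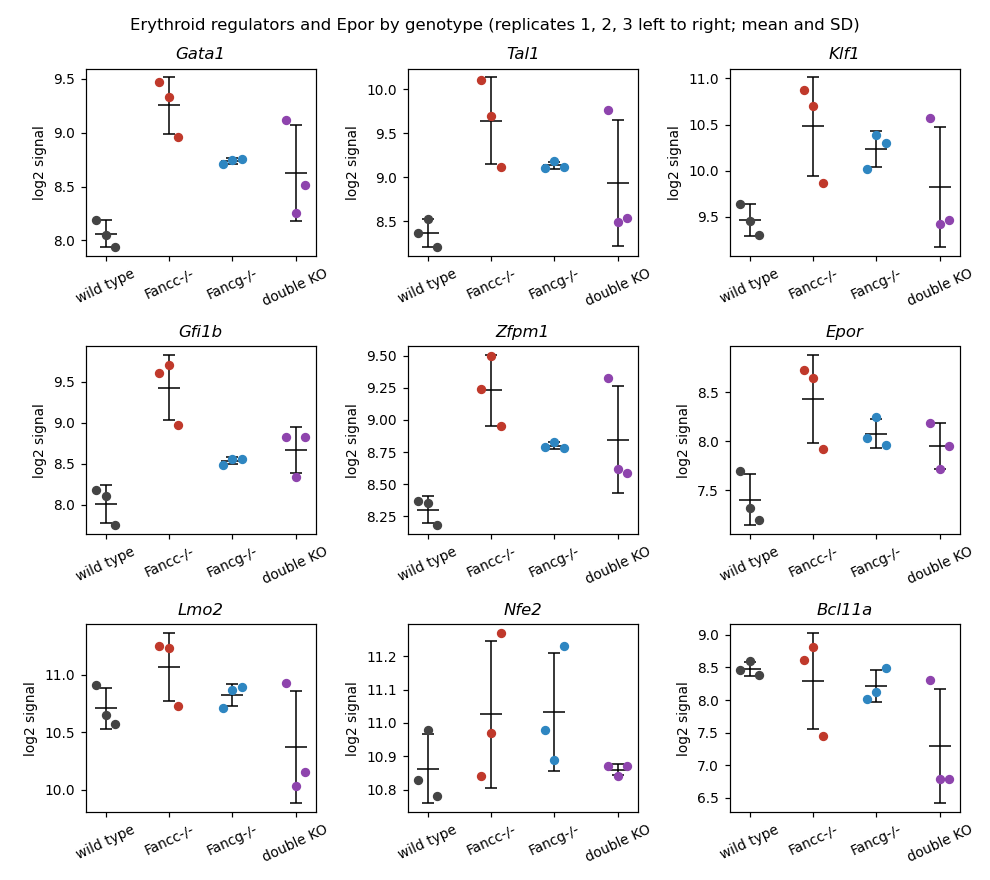
Log2 signal of each regulator on each of the 12 arrays, 1 panel per gene with its own vertical axis, points in replicate order and bars showing mean and SD (n = 3). In Gata1, Gfi1b, Zfpm1 and Epor all knockout arrays lie above wild type, in Tal1 and Klf1 double-knockout replicate 1 lies far above replicates 2 and 3, and Nfe2 stays between 10.78 and 11.27.

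Among the cofactors, Gfi1b had the largest change against wild type of the 9 genes, each read on its brightest probe set. This zinc finger repressor, needed for red cells and platelets, read 8.18, 8.11 and 7.75 in wild type, 9.61, 9.70 and 8.97 in Fancc-/-, 8.49, 8.56 and 8.56 in Fancg-/- and 8.82, 8.34 and 8.83 in the double knockout. Fancc-/- was above all other genotypes, and no knockout array fell in the wild-type range. The rise was 1.41 ± 0.20 in Fancc-/- (limma adjusted p = 0.00347). The Fancg-/- value was 0.52 ± 0.20 (limma adjusted p = 0.614) and the double-knockout value 0.65 ± 0.20 (limma adjusted p = 0.0805).

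Zfpm1, the partner that Gata1 needs at many of its genes, read 8.37, 8.35 and 8.18 in wild type and 9.24, 9.50 and 8.95 in Fancc-/-. It read 8.79, 8.83 and 8.78 in Fancg-/- and 9.33, 8.62 and 8.59 in the double knockout. None of the knockout arrays overlapped wild type. Zfpm1 rose by 0.93 ± 0.19 in Fancc-/- (limma adjusted p = 0.0208), against 0.50 ± 0.19 in Fancg-/- (0.614) and 0.55 ± 0.19 in the double knockout (0.114). A dimmer second probe set gave differences of 0.64, 0.40 and 0.38 in the same order, and its Fancc-/- difference missed the threshold in a fit over probe sets (limma adjusted p = 0.124). On the brighter probe set the call ended without wild-type replicate 2 (limma adjusted p = 0.0715) or 3 (0.0899) or Fancc-/- replicate 1 (0.053) or 2 (0.051).

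Lmo2, the LIM protein that bridges Tal1 and Gata1, was not called in any comparison with wild type. It read 10.91, 10.65 and 10.57 in wild type, 11.25, 11.23 and 10.73 in Fancc-/-, 10.71, 10.87 and 10.89 in Fancg-/- and 10.93, 10.03 and 10.15 in the double knockout. Each knockout group overlapped wild type, and double-knockout replicates 2 and 3 were the lowest of the 12 arrays. The changes were 0.36 ± 0.22 in Fancc-/- (limma adjusted p = 0.382), 0.11 ± 0.22 in Fancg-/- (0.98) and -0.34 ± 0.22 in the double knockout (0.369). Without double-knockout replicate 1, Lmo2 was called lower in the double knockout, at -0.62 ± 0.16 (limma adjusted p = 0.0261), in a fit that called 8.95% of all tested genes lower.

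Nfe2, the globin locus activator that also serves platelet formation, was not called either. Its 12 values lay between 10.78 and 11.27, with means of 10.86 ± 0.11, 11.03 ± 0.22, 11.03 ± 0.18 and 10.86 ± 0.02 (SD, n = 3) in wild type, Fancc-/-, Fancg-/- and the double knockout. The changes of 0.16 ± 0.12, 0.17 ± 0.12 and 0.00 ± 0.12 were not called (limma adjusted p = 0.494, 0.89 and 0.993).

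Epor, the receptor, read 7.70, 7.32 and 7.20 in wild type and 8.73, 8.65 and 7.92 in Fancc-/-. In Fancg-/- it read 8.03, 8.25 and 7.96, and in the double knockout 8.19, 7.72 and 7.95. All 9 knockout arrays were above the highest wild-type array, double-knockout replicate 2 only just. Epor rose by 1.03 ± 0.22 in Fancc-/- (limma adjusted p = 0.0223). It was 0.68 ± 0.22 higher in Fancg-/- (limma adjusted p = 0.436) and 0.55 ± 0.22 higher in the double knockout (limma adjusted p = 0.153), neither of which passed. The Fancc-/- call ended without wild-type replicate 2 (limma adjusted p = 0.0954) or 3 (0.1) or Fancc-/- replicate 1 (0.069) or 2 (0.0543), and with only these 2 genotypes in the fit (0.0917).

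Bcl11a, which represses embryonic and fetal-type globin genes and is also an essential B cell factor, had means below wild type in each knockout. Its brightest probe set read 8.46, 8.60 and 8.38 in wild type, 8.61, 8.82 and 7.45 in Fancc-/-, 8.02, 8.13 and 8.49 in Fancg-/- and 8.31, 6.79 and 6.78 in the double knockout. All double-knockout arrays were below wild type, replicates 2 and 3 by more than 1.5 log2 units, and Fancc-/- replicate 3 was low as well. The changes were -0.18 ± 0.41 (limma adjusted p = 0.845), -0.27 ± 0.41 (0.968) and -1.19 ± 0.41 (0.103) in Fancc-/-, Fancg-/- and the double knockout. Without double-knockout replicate 1 the fall was -1.69 ± 0.32 and was called (limma adjusted p = 0.00645).

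The gene has 7 probe sets, 6 of them bright enough to test, and they differed in size. The probe set 1456632_at read 7.94, 8.21 and 7.84 in wild type, 7.76, 7.51 and 5.72 in Fancc-/-, 6.89, 7.08 and 6.82 in Fancg-/- and 7.32, 5.03 and 5.12 in the double knockout. On it every knockout array was below every wild-type array, with group means of 8.00, 7.00, 6.93 and 5.82 in the same order. Every knockout array was also below wild type on 1457072_at (at most 6.37, against at least 6.47) and narrowly on 1447334_at (at most 6.13, against at least 6.15). The double-knockout difference of -2.18 missed the threshold in the fit over probe sets (limma adjusted p = 0.0587), as did those of 1447334_at (-0.58, 0.061) and 1457072_at (-1.82, 0.0717). The 3 other tested probe sets gave double-knockout differences of -1.19, -0.44 and -0.21. B cell markers were lower in the knockouts as well. The mean log2 level of the 17 tested of 18 listed markers was 8.50 to 8.98 on the wild-type arrays, 6.01 to 6.71 in Fancc-/-, 6.48 to 6.69 in the double knockout and 6.61 to 8.09 in Fancg-/-. On Fancc-/- replicates 1 and 2 and double-knockout replicate 1 the B cell markers were at medians of -2.50, -1.83 and -1.79 from the wild-type mean. The brightest Bcl11a probe set read 8.61, 8.82 and 8.31 there, close to wild type. On these arrays 1456632_at read 7.76, 7.51 and 7.32, 1457072_at 6.24, 6.37 and 6.15, and 1447334_at 6.07, 6.13 and 6.11, all below wild type. The probe set 1426552_a_at read 6.22, 6.05 and 6.26 (wild type 5.91 to 6.06), and 1447335_x_at 7.22, 7.05 and 7.05 (wild type 7.11 to 7.17). On Fancc-/- replicate 3 and double-knockout replicates 2 and 3 the markers and the brightest probe set were both low (-2.97, -2.27 and -2.34 for the markers). The part of B cells in the Bcl11a values was not tested.

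**Figure D2:**
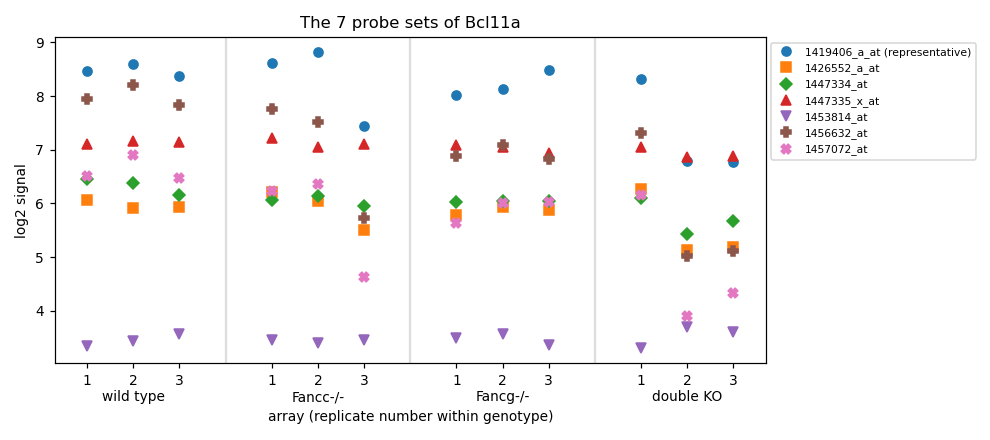
Log2 signal of the 7 probe sets of Bcl11a on each of the 12 arrays, grouped by genotype with the replicate number on the horizontal axis. Fancc-/- replicate 3 and double-knockout replicates 2 and 3 are low on 1419406_a_at, 1456632_at and 1457072_at, and 1453814_at stays between 3.30 and 3.70, below the array medians.

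The order of the 4 genotypes was alike for 6 of the genes. Gata1, Klf1, Tal1, Zfpm1, Epor and Gfi1b had their highest mean in Fancc-/- and their lowest in wild type, with Fancg-/- and the double knockout between them. Between these middle genotypes limma called 0 of the 9 genes, and 0% of all tested genes. Of the 9, 1 had an unadjusted limma p below 0.05, Bcl11a, as had 1714 of the 11906 tested genes. Against Fancc-/- all 9 double-knockout means were lower, with a median difference of -0.66. None of these was called by limma, where 0.0084% of all tested genes were called. An unadjusted limma p below 0.05 was reached by 6 of the 9 and by 2345 of the 11906 tested genes. The smallest adjusted p values were those of Gfi1b (-0.76, limma adjusted p = 0.102), Lmo2 (-0.70, 0.129) and Gata1 (-0.63, 0.142). Fancg-/- against Fancc-/- also gave 0 calls against 0.109% of all tested genes, with Gfi1b at -0.89 (limma adjusted p = 0.204). At an unadjusted limma p below 0.05 were 3 of the 9 and 1076 of the 11906 tested genes.

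Double-knockout replicate 1 weighed on these comparisons. It read above replicates 2 and 3 in Gata1, Klf1, Tal1, Zfpm1, Lmo2, Bcl11a and Epor. Leaving it out raised the number of calls among all genes too. Without it, 7 of the 9 regulators were called lower in the double knockout than in Fancc-/-, where 5.23% of all tested genes were called lower and 5.56% higher. Against Fancg-/-, 2 were called lower (4.22% of all tested genes), and against wild type also 2, Lmo2 and Bcl11a (8.95%).

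Counted without a model, the same 6 genes, Gata1, Klf1, Tal1, Zfpm1, Epor and Gfi1b, had all 3 arrays above all wild-type arrays in Fancc-/- and again in Fancg-/-. Among all tested genes this held for 11.1% in Fancc-/- and 8.68% in Fancg-/-. In the double knockout it held for 4 genes, Gata1, Zfpm1, Epor and Gfi1b (12.5% of all tested genes), and Bcl11a alone lay wholly below wild type (16.9% of all tested genes). The limma test called 0 of the 9 in Fancg-/-, where 0.0084% of all tested genes were called higher and 0.042% lower. Of the 9, 6 had an unadjusted p below 0.05 there, the 6 just named, as had 833 of the 11906 tested genes. In the double knockout limma also called 0, against 2.27% of all tested genes higher and 3.02% lower. There 5 of the 9 had an unadjusted p below 0.05, as had 2876 of the 11906 tested genes. With array weights limma called 3 regulators higher in Fancg-/- (0.958% of all tested genes), and with only the 2 groups compared also 3 (0.218%). In the double knockout, array weights gave 4 called higher and 2, Lmo2 and Bcl11a, called lower, but also 12.7% of all tested genes higher and 15.7% lower.

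The late erythroid products were set beside the regulators. Of 38 listed genes, 28 were on the array under these symbols and 27 were tested. In Fancc-/- marrow 20 of the 27 rose and 0 fell, where 2.18% of all tested genes were called higher and 2.36% lower. The largest rises were those of Car1, the red cell carbonic anhydrase (1.75 ± 0.27, limma adjusted p = 0.0049), Rhag, the Rh-associated ammonia channel (1.61 ± 0.28, 0.00897), Tspan33, an erythroid tetraspanin (1.47 ± 0.18, 0.00193), and Add2, an adducin of the membrane skeleton (1.40 ± 0.22, 0.00498). Add2, for example, read 6.75, 6.73 and 6.69 in wild type and 8.49, 8.10 and 7.80 in Fancc-/-.

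In Fancg-/- marrow limma called 0 of the 27 products, 20 of which had an unadjusted p below 0.05 and all of which had means above wild type. Of all 11906 tested genes, 833 had such a p. Tspan33 (0.84 ± 0.18, limma adjusted p = 0.166), Tmod1, the cap of red cell actin filaments (0.91 ± 0.19, 0.166), and Prdx2, an abundant red cell peroxidase (0.58 ± 0.13, 0.199), had the smallest p values. In the double knockout 9 rose and 0 fell, where 2.27% of all tested genes were called higher and 3.02% lower. The largest called rises were those of Add2 (1.28 ± 0.22, limma adjusted p = 0.0152), Tmod1 (1.18 ± 0.19, 0.0136), Cldn13, a claudin (1.06 ± 0.25, 0.0368), and Tspan33 (0.93 ± 0.18, 0.0185). Of these 9 calls, 0 were left without wild-type replicate 2, wild-type replicate 3 or double-knockout replicate 3, and 4 without double-knockout replicate 2. Called rises among all tested genes fell as well, from 2.27% to 0.0924%, 0.126%, 0.101% and 0.294% in the same order. With Xist as a covariate limma called 0 products and 0% of all tested genes there. Xist by itself separated the double knockout from wild type, so that fit cannot decide whether the products rise. The 20 calls in Fancc-/- came to 13 without wild-type replicate 2 and to 13 without wild-type replicate 3. Among all tested genes, called rises went from 2.18% to 0.79% and 0.857% in those fits.

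The regulators' median change was close to that of the products in each genotype. The 9 regulators had medians of 1.01, 0.52 and 0.55 in Fancc-/-, Fancg-/- and the double knockout, and the 27 products 1.11, 0.62 and 0.68. The medians of all tested genes were -0.011, 0.009 and -0.015. The spread inside the regulators was wide, because Nfe2, Lmo2 and Bcl11a did not follow. In Fancc-/- only 3 of the 27 products had a larger change than Gfi1b, 9 than Tal1 and 10 than Gata1, but 26 than Lmo2, 26 than Nfe2 and 27 than Bcl11a. In the double knockout 15 products had a larger change than Gfi1b, 16 than Gata1, 16 than Tal1 and 24 than Klf1, and all 27 were above Lmo2, Nfe2 and Bcl11a.

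**Figure D3:**
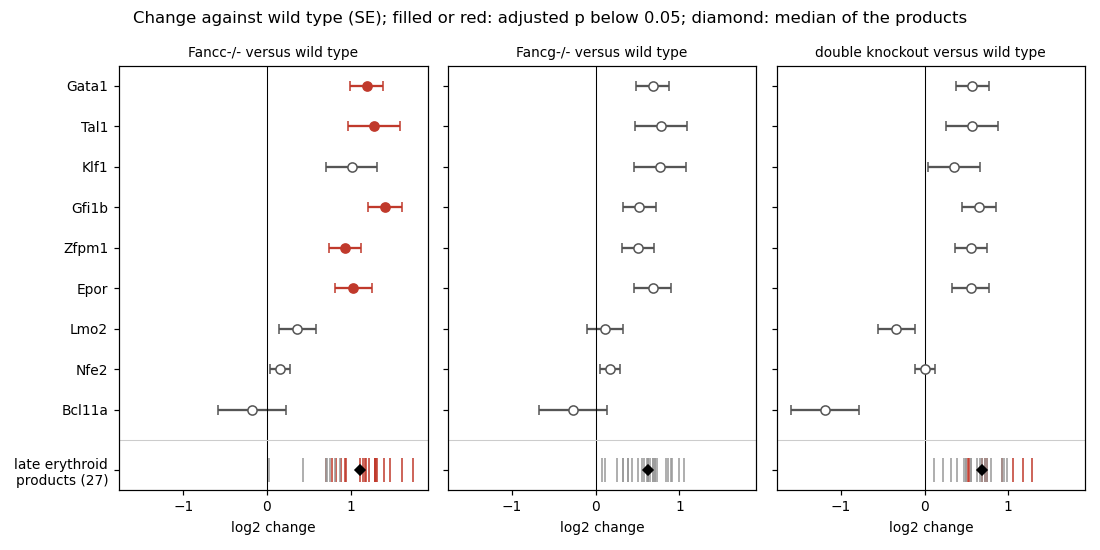
Log2 change against wild type of the 9 regulators (points with SE) and of the 27 late erythroid products (ticks, with a diamond at their median), 1 panel per knockout genotype, filled or red where the adjusted p is below 0.05. In Fancc-/- 5 regulators and 20 products are called, in Fancg-/- 0 and 0, in the double knockout 0 and 9, and Lmo2, Nfe2 and Bcl11a lie below nearly all products in each panel.

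Array by array, regulators and products moved together in part. The median difference of the 9 regulators from the wild-type mean was 1.32, 1.23 and 0.52 on the Fancc-/- arrays, and that of the products was 1.20, 1.08 and 0.92. Fancc-/- replicate 3 thus had regulators well below, and products near, those of its group. The Fancg-/- arrays gave 0.49, 0.54 and 0.55 for the regulators and 0.68, 0.67 and 0.50 for the products, the tightest group of the 3. On the double-knockout arrays the regulators were at 0.81, 0.14 and 0.19 and the products at 1.14, 0.36 and 0.64. Replicate 1 was highest in both lists, and replicates 2 and 3 were within 0.10 of wild-type replicate 1 in the regulators, which was itself at 0.13.

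**Figure D4:**
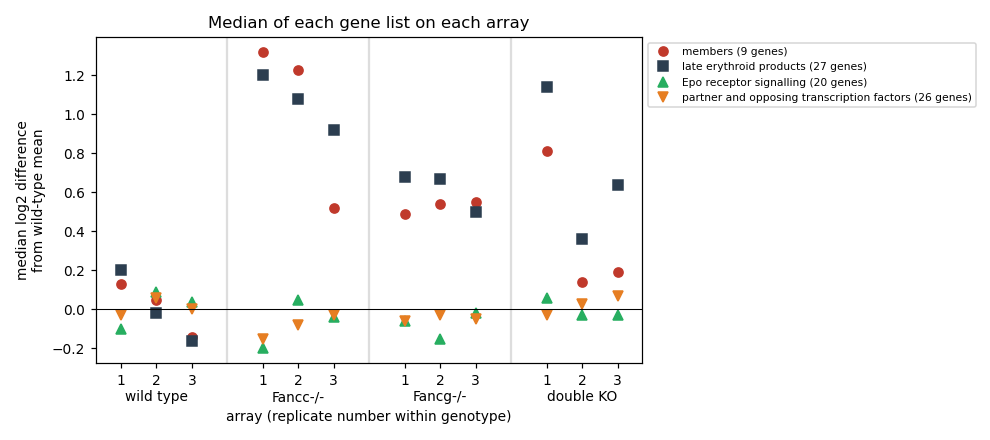
Median log2 difference from the wild-type mean over the genes of 4 lists, on each of the 12 arrays (vertical axis log2, replicate number and genotype on the horizontal axis). Regulators and late erythroid products lie above 0 on all 9 knockout arrays, while the partner factors and the Epo signalling genes stay within 0.2 of 0.

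Over the 12 arrays the regulators fell into those that tracked the products and those that did not. The correlation with the mean of the 27 products was 0.97 for Gata1, 0.96 for Zfpm1, 0.93 for Tal1, 0.93 for Epor, 0.90 for Gfi1b and 0.85 for Klf1, but 0.52 for Lmo2, 0.18 for Nfe2 and 0.07 for Bcl11a (Pearson's r over 12 arrays). These are descriptions: the arrays share 4 genotypes, and a single genotype difference is enough to raise them.

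The genes with the most similar pattern over the 12 arrays were found among all tested genes, again as a description. For Gata1 they were Ermap, an erythroid membrane protein (r = 0.974), Tal1 (0.964) and Ubac1 (0.964). For Tal1 they were Nipa1 (0.974), Donson (0.965) and Gata1, and for Klf1 they were Tal1 (0.96), Slc6a20a (0.941) and Sh3tc2 (0.935). Zfpm1 was closest to Cpox, an enzyme of heme synthesis (0.965), Daam1 (0.962) and Gata1 (0.958). Epor was closest to Tspo2, an erythroid relative of the translocator protein (0.98), Trim10 (0.97) and Gclm (0.965), and Gfi1b to Ube2o, a ubiquitin enzyme of reticulocytes (0.974), Smap1 (0.97) and Tent5c (0.97). The 3 remaining regulators had other neighbours: Fbxo9 (0.984), Hmmr (0.968) and Brms1l (0.962) for Lmo2, Senp7 (0.985), Gca (0.976) and Heatr5b (0.972) for Bcl11a, and Rflnb (0.908), Entpd5 (0.902) and Pygl (0.899) for Nfe2.

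The factors that work with or against the regulators went in both directions, with few calls. All 26 listed partner and opposing transcription factors were tested, with median changes of -0.08, -0.04 and 0.11 in Fancc-/-, Fancg-/- and the double knockout. The members spread from -1.20 to 0.78 in Fancc-/-, from -0.75 to 0.70 in Fancg-/- and from -1.26 to 1.17 in the double knockout. In the double knockout 12 of the 26 had an unadjusted limma p below 0.05, as had 2876 of the 11906 tested genes. Runx1 at -1.20 ± 0.33 in Fancc-/- (limma adjusted p = 0.062) and Id2 at 1.17 ± 0.44 in the double knockout (0.132), ends of those ranges, were not called. E2f2, a cell cycle factor that red cell precursors use at their last divisions, read 10.01, 9.98 and 9.76 in wild type and 10.41, 10.76 and 10.85 in Fancc-/-. E2f2 rose by 0.76 ± 0.12 in Fancc-/- (limma adjusted p = 0.00629) and by 0.65 ± 0.12 in the double knockout (0.0179), in each case as the only called rise of the list.

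Myb, which keeps progenitors immature, read 11.37, 11.44 and 11.31 in wild type and 10.55, 9.91 and 9.88 in the double knockout. Its change of -1.26 ± 0.19 (limma adjusted p = 0.0107) was the only called fall of the list in the 3 comparisons with wild type, and its values in Fancc-/- and Fancg-/- were -0.59 and -0.53 (limma adjusted p = 0.104 and 0.546). In Fancg-/- limma called 0 of the 26, with 7 at an unadjusted p below 0.05 (833 of the 11906 tested genes). The smallest p values there were those of Zbtb7a, a globin repressor (-0.51 ± 0.14, limma adjusted p = 0.312), and E2f2 (0.35 ± 0.12, 0.546).

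Of the genes of Epo receptor signalling, 20 of 23 listed were tested, and the same 3 were called in Fancc-/- and in the double knockout. Tfr2, a transferrin receptor that binds Epor, read 7.64, 7.65 and 7.65 in wild type, and the Fancc-/- mice read 8.76, 8.65 and 8.21, the double knockouts 8.51, 8.19 and 8.32. It rose by 0.90 ± 0.15 (limma adjusted p = 0.0076) and 0.69 ± 0.15 (0.0295). Cish, a feedback inhibitor induced through Stat5, rose by 0.70 ± 0.17 (limma adjusted p = 0.0338) and 0.93 ± 0.17 (0.0174).

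Ptpn6, the phosphatase SHP-1 that shuts the receptor off and is abundant in other blood cells, read 10.79, 10.77 and 10.73 in wild type, and the Fancc-/- mice read 9.92, 10.19 and 9.89, the double knockouts 10.28, 10.08 and 9.98. Ptpn6 fell by 0.76 ± 0.12 (limma adjusted p = 0.00679) and by 0.65 ± 0.12 (0.0192). In Fancg-/- limma called 0 of the 20, with 3 at an unadjusted p below 0.05 (833 of the 11906 tested genes). Socs2 (-0.66 ± 0.22, limma adjusted p = 0.501) and Inpp5d (-0.38 ± 0.13, 0.525) had the smallest p values there. The list's median changes were -0.04, -0.06 and 0.00.

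Several regulators are also active in other marrow cells, so the markers of those cells were read on the same arrays. Megakaryocytes share Gata1, Tal1, Zfpm1, Gfi1b and Nfe2 with red cell precursors. Limma called 0 of the 12 tested of 16 listed megakaryocyte markers in Fancc-/-, Fancg-/- or the double knockout. At an unadjusted limma p below 0.05 were 1, 2 and 1 of them, and 2352, 833 and 2876 of the 11906 tested genes. The markers' mean log2 level was 6.20 to 7.81 on the wild-type arrays and 6.48 to 7.46 in Fancc-/-. Wild-type replicate 1 stood above replicates 2 and 3, with list medians of 0.83, -0.37 and -0.50 from the wild-type mean. The medians were 0.36, 0.47 and -0.09 in Fancc-/-, 0.24, 0.03 and 0.18 in Fancg-/-, and -0.03, -0.17 and -0.08 in the double knockout. With that wild-type spread, 0 calls do not show that these markers were unchanged. Basophil, mast cell and eosinophil markers, from cells that also use Gata1, were lower rather than higher in Fancc-/-. Of 14 listed, 9 were tested, of which 3 fell and 0 rose there, where 2.36% of all tested genes fell and 2.18% rose. Their mean levels were 9.73 to 10.08 in wild type and 6.88 to 9.21 in Fancc-/-. Fancc-/- replicate 3 was far the lowest: the list's medians from the wild-type mean were -0.72, -0.77 and -3.11 in replicate order. Stem and progenitor markers, 12 tested of 14 listed, lay at 7.05 to 7.21 in wild type and at 6.31 to 6.88 in Fancc-/-. They lay at 6.72 to 6.91 in Fancg-/- and at 6.47 to 6.76 in the double knockout. Limma called 1 lower in Fancc-/- and 2 in the double knockout, where 2.36% and 3.02% of all tested genes fell. It called 0 in Fancg-/-. The list's median change in Fancc-/- was -0.13, with 4 of the 12 above 0.

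Of these 5 marker lists, that of B cells had the most calls: 14 of 17 fell in Fancc-/- marrow and 15 of 17 in double-knockout marrow, and limma called 0 in Fancg-/- (15 at an unadjusted p below 0.05). Among all tested genes 2.36% were called lower in Fancc-/- and 3.02% in the double knockout. In Fancg-/-, 833 of the 11906 tested genes had an unadjusted limma p below 0.05. Neutrophil markers lay between 12.65 and 13.10 in mean level on the 12 arrays. Of the 13 tested, 2 fell in the double knockout, the granule genes Mpo (-0.31 ± 0.07, limma adjusted p = 0.0279) and Elane (-0.33 ± 0.07, 0.0297), and the chemokine receptor Cxcr2 was at -1.59 ± 0.45 (0.06). Mpo, Elane and Cxcr2 are named after their values were seen. Limma called 0 of the 13 in Fancc-/- and 0 in Fancg-/- (3 and 0 at an unadjusted p below 0.05). Of all 11906 tested genes, 2352 and 833 had such a p in the same order. The part of these other cell types in the regulators' values was not tested.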

How the data were processed

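The authors deposited log2 signals per probe set, made with RMA in Partek per the submitters' processing notes, which give no versions. RMA adjusts background and normalizes the arrays together, so signals are relative to each sample's whole RNA. Depth has no meaning for array signals, and 3 arrays per group limit the precision. Probe sets were named through GEO's platform annotation: 34945 of 45101 had 1 symbol, 932 had several, 9160 had none, and 64 were controls. Each gene was read on its brightest probe set and tested if it lay above the array median on at least 3 arrays. Tests used limma (version 3.58.1, R version 4.3.3; 1 model over 12 arrays, variance trend, 8 residual degrees of freedom, 2-sided, Benjamini-Hochberg over all tested genes, threshold 0.05), which was tested on simulated data. Probe sets of the regulators were read in a second fit over probe sets.

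Named besides the regulators were the targeted and sex-linked genes, the 4 largest called rises among the late products (or the 3 smallest p values), up to 4 calls per direction in the partner and signalling lists (or the 2 smallest p values), and 3 nearest patterns per regulator. Regulators and lists were chosen with earlier results of these data known. By replicate number, Fancc-/- and wild-type deviations from their group means correlated at 0.16, 0.15 and 0.16. Deviations within a group cancel out, so these correlations are not independent of each other. The labels name no pairs, the main fit used none, and replicate number entered only as a block in an alternative fit.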

Additional observations from a re-analysis of the deposited data

How the results depend on the processing

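Gata1 and Gfi1b kept their Fancc-/- calls under all alternatives tried, and no called change reversed. The number of regulators called in Fancc-/-, 5, came to 2 without variance moderation and to between 2 and 6 when 1 array was left out, with 2 left, Gata1 and Gfi1b, in each fit that omitted wild-type mouse 2 or 3 or Fancc-/- mouse 1 or 2. The replicate block kept all 5 calls and changed no other call of a regulator. The Tal1 call was lost with median centring (limma adjusted p = 0.0508) and with Xist as a covariate (0.0555), and the Epor call with only the 2 groups compared (0.0917). The late products called in Fancc-/-, 20, came to 12 without moderation and to between 13 and 22 without 1 array. Among all genes, called rises in Fancc-/- went from 2.18% to 1.13% without moderation and to between 0.79% and 2.78% without 1 array. In Fancg-/-, the 0 regulators and 0 products stayed 0 without any 1 array. They became 3 and 16 with array weights (0.958% of all genes called higher and 1.37% lower). With only the 2 groups compared they became 3 and 8 (0.218% of all genes higher and 0.386% lower). In the double knockout, the 0 regulators became 6 with array weights (4 higher and 2 lower, in a fit calling 12.7% of all genes higher and 15.7% lower) and 0 to 2 without 1 array. The 9 products there became 20 with array weights, 0 without moderation (0.21% of all genes called higher) and 0 to 8 without 1 array (0.0924% to 6.62%). With Xist as a covariate the products called there became 0, in a fit that called 0% of all genes. Against Fancc-/- the double knockout had 8 regulators called lower with array weights (7.31% of all genes) and 0 to 7 without 1 array, and against Fancg-/- 3 (9.65%) and 0 to 2. For Fancg-/- against Fancc-/- 1 regulator was called with array weights (0.0672% of all genes higher and 0.252% lower). Without 1 array 0 to 1 were called there, with at most 0.134% of all genes higher and 0.378% lower. The causes were not tested. Among all genes, the Fancc-/- calls split into 259 higher and 281 lower, 374 and 252 after a second quantile normalization and 206 and 319 after median centring.

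The product medians moved by less than their spread between replicates under every alternative. Counts of called products and a fit with Fancg-/- reduced to replicate 2 (0 regulators and 0 products called against wild type) were chosen after seeing the data. By number, the Fancg-/- and wild-type deviations correlated at -0.27, -0.06 and -0.37 and those of the double knockout at -0.08, -0.14 and -0.01. What a replicate number marks is not known.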
